A study of Mus musculus with 8 samples.

Results

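The 48 genes described here encode the actin cytoskeleton of T cells, namely the actins, the proteins that bind actin monomers, nucleate, elongate, bundle, cap and sever filaments, nonmuscle myosin II, and the GTPases and regulators that steer them. They were taken by name, without regard to their measured values, and make up 48 of the 23337 gene symbols in the tables. Each was found in all 8 libraries on 1 row, and all 48 passed the filter of a mean of at least 1 TPM (a measure of each gene's length-corrected share of the messenger RNA). The series asks, by its title, whether naive T cells need Trappc1, a core subunit of the TRAPP complexes that tether vesicles at the Golgi, in order to survive. Naive T cells (CD62L-positive, CD44-low) were sorted from the mLNs, as the labels abbreviate them, and the spleens of mice aged 4 weeks. The 4 groups of 2 libraries were CD4 and CD8 T cells of wild-type mice (WT) and of mice with a conditional Trappc1 knockout driven by CD4-cre (KO). CD4-cre becomes active in thymocytes before the CD4 and CD8 lineages part, so the deletion is designed for both, and whether the WT mice carried Cre or floxed alleles is not known from the labels. Whether the replicates are separate mice is not stated in the labels. Each p-value thus sets a difference against how far these libraries vary, pooled over the 4 groups, and that variation may be technical.

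Actin exists as monomers and as polar filaments, and T cells turn it over rapidly to crawl through lymph nodes and to build the contact with an antigen-presenting cell. Small GTPases activate WASP and the WAVE complex, which switch on the Arp2/3 complex to nucleate branches, while cofilin, profilin and the thymosins govern how monomers leave and re-enter filaments. Inherited loss of several of these genes, among them Was, Wipf1, Coro1a, Dock2, Dock8 and Rhoh, causes immune deficiency with few or poorly migrating T cells.

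The beta-thymosins are shown first, because both are among the more abundant transcripts measured here and because their relative share differed between CD8 KO and WT libraries. Thymosin beta 4 (Tmsb4x, chrX:167207094-167209218, minus strand) and thymosin beta 10 (Tmsb10, chr6:72957347-72958748, minus strand, both mm10 as the files give them) are small peptides that each hold 1 actin monomer. The coding sequences below come from the GENCODE M21 annotation of GRCm38, 5′ to 3′, with capitals marking the bases at which the pair differ.
Tmsb4x: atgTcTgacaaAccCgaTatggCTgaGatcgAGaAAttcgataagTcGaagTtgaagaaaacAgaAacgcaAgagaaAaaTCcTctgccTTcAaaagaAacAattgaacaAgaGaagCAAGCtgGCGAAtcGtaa
Tmsb10: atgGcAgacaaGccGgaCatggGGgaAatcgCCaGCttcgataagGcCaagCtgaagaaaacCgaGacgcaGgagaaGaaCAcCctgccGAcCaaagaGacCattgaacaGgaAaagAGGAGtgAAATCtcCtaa
The pair differ at 40 of 135 coding bases (70.4% identical), and the longest stretch they share is 10 bases, so a sequence read across the coding region can tell them apart. The actin pair is closer, with Actb and Actg1 identical at 88.7% of 1128 coding bases and over a longest stretch of 62 bases. The myosin light chain gene Myl12b and its neighbour in sequence Myl12a share 96.5% of their coding bases and a stretch of 105 bases, so the division of reads between Myl12b and Myl12a is uncertain.

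Many actin genes are known targets of serum response factor (SRF), which binds a motif called the CArG box, and the coactivators of SRF sense the pool of free actin monomers. Promoter windows of 300 bases, from 250 before to 50 after the annotated start, were matched from RefSeq (GRCm38.p6) for 44 of the 48 genes, leaving Actb, Coro1b, Rac2 and Nckap1l. A CArG box on either strand lay in a window of 3 of these 44 genes (6.82%), against 1.81% of 27025 genes. Some genes had more than 1 window. Of the 59 windows of the 44 genes 3 held the motif, against 1.63% of 32851 windows. The stretches that hold it are given 5′ to 3′ on the strand of the gene, with the motif in capitals, for Actg1 (chr11:120348551-120348610, minus strand), Myl6 (chr10:128493025-128493084, minus strand) and Arpc4 (chr6:113377863-113377897, plus strand). The Myl6 stretch lies inside the deposited mm10 position of the gene (chr10:128490861-128493825), so its motif precedes a different start annotated by RefSeq.
Actg1: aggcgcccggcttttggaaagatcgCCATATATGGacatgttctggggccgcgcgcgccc
Myl6: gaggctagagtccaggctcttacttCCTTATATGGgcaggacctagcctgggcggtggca
Arpc4: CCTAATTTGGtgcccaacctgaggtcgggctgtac
These matches describe the letters in the window and do not show binding. The log2 differences (KO minus WT, ± SE, 2 libraries a group) of these 3 genes were 0.20 ± 0.30, 0.27 ± 0.28 and -0.03 ± 0.30 in CD4 cells and -0.22 ± 0.30, 0.65 ± 0.28 and 0.65 ± 0.30 in CD8 cells, in the same order, none past the test (limma, adjusted p of 0.321 or more). Srf itself was measured at 10.1 and 11.9 TPM in CD4 WT against 8.73 and 5.03 in CD4 KO. CD8 WT had 7.95 and 6.63 TPM, against 10.2 and 6.03 in CD8 KO. The CD4 difference was -0.65 ± 0.52 (adjusted p = 0.566). Of Srf and its coactivators Mkl1 and Mkl2, 0 of 3 passed in either lineage, with Mkl2 at an unadjusted p under 0.05 in both (-1.67 ± 0.58 and -1.48 ± 0.58).

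Aligned sequence ranged from 3.03 to 4.01 gigabases per library. CD8 WT replicate 2, as labelled, was unlike the other libraries. Its correlation with CD8 WT replicate 1 across genes was 0.821, against 0.929 to 0.951 in the other groups, and 13.7% of its TPM fell on marker genes of B cells, myeloid cells, erythroid cells and platelets, against 0.338% to 1.5% elsewhere. All 7 measured erythroid and all 12 myeloid markers were higher in WT CD8 than in WT CD4 cells, with summed myeloid markers at 29177 TPM in that library and 654 TPM in CD8 WT replicate 1. In CD4 cells the summed myeloid markers were 252 and 89.0 TPM in WT and 1362 and 2260 in KO libraries, and 12 of 12 were higher in the KO, as were 7 of 7 erythroid markers. B cell markers went the other way there, at 14746 and 10819 TPM in CD4 WT and 6935 and 6411 in CD4 KO, with 8 of 9 lower. In CD8 cells the B cell sum was 1825 and 23013 TPM in WT and 1987 and 2611 in KO. The myeloid sum in the CD8 KO was 1206 and 1572 TPM. T cell markers summed to between 3523 and 5536 TPM in 7 libraries and to 2366 TPM in CD8 WT replicate 2. They were lower in the CD4 KO for 6 of 7 (5050.3 and 4608 TPM in WT, 3523 and 3686 in KO) and higher in the CD8 KO for 7 of 7 (5355 and 2366 TPM in WT, 5536 and 4904 in KO). No T cell marker was listed at 0, Cd4 marked the CD4 libraries (543 to 764 TPM, against 0 to 14.5 in CD8) and Cd8a the CD8 libraries (163 to 548 TPM, against 1.28 to 4.10 in CD4). Trappc1 was measured at 78.7 and 55.0 TPM in CD4 WT against 30.5 and 32.8 in CD4 KO. CD8 WT had 81.2 and 40.3 TPM, against 56.9 and 45.6 in CD8 KO. The difference was -1.03 ± 0.40 in CD4 (adjusted p = 0.235) and -0.16 ± 0.40 in CD8 cells (adjusted p = 0.869). The labels do not name the deleted part of Trappc1, so this is no check of the deletion. Other cell types also use many of the 48 genes, and how far such cells contribute to the results below was not tested. In bulk samples, fewer cells of a type and less RNA per cell cannot be told apart.

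Together the 48 genes took 2.81% to 4.54% of all TPM. Cfl1, Coro1a, Tmsb10, Arpc5 and Arpc2 were the most abundant by their mean and held between 45.7% and 53.2% of that sum in each library. The summed level was 41362 and 42048 TPM in CD4 WT and 36211 and 35659 TPM in CD4 KO. Both KO libraries therefore lay below both WT libraries, by more than the spread between replicates. In CD8 cells it was 40016 and 28097 TPM in WT and 41202 and 45437 TPM in KO, with the lowest sum of all in CD8 WT replicate 2. The CD4 difference depends on the scaling, because with median-of-ratios scaling the group means became 35964 in WT and 36239 in KO. With 2 libraries against 2, no exact permutation test of a single value could pass 0.05, so no test is given for the sums. For 7 of the 48 genes (Tmsb10, Lcp1, Rdx, Evl, Capg, Gsn and Cdc42) the deposited coverage was below what their deposited FPKM gives, so their level relative to other genes is uncertain. The ratio of coverage to that expected was lowest for Evl (0.044 to 0.049 over the libraries) and Lcp1 (0.057 to 0.061). For Rdx it varied most between libraries, from 0.216 to 0.264. The differences of Rdx, and to a lesser degree those of Evl and Lcp1 given below, are uncertain too. The first limit holds for the thymosin and ERM shares below.

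**Figure D1:**
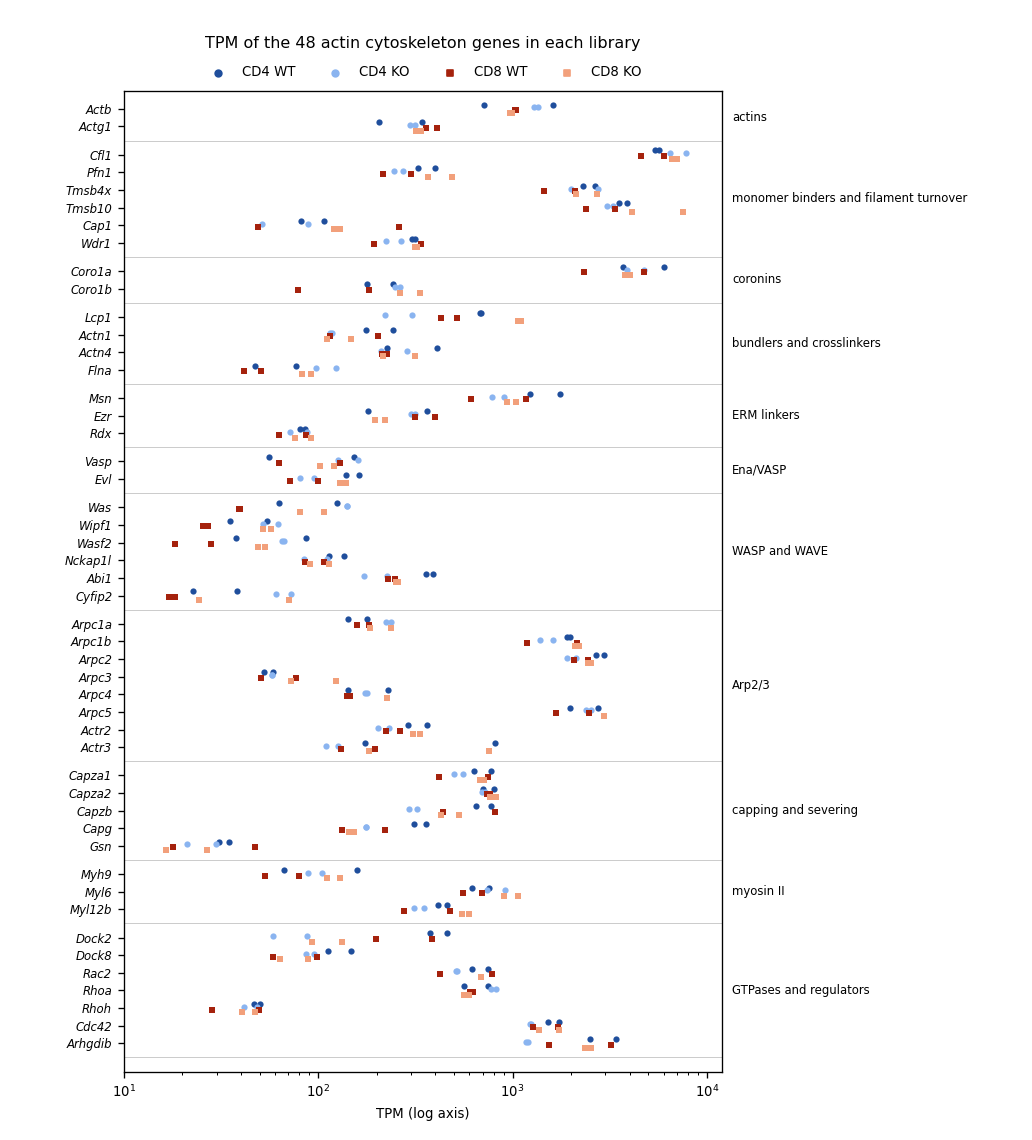
TPM (horizontal log axis) of each of the 48 genes in the 8 libraries, grouped by role, with circles for CD4 and squares for CD8 cells, dark for WT and light for KO. Levels run from under 20 TPM for Cyfip2 and Gsn in some libraries to much higher levels for Cfl1, Coro1a and Tmsb10, and most groups of the same gene lie close together.

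**Figure D2:**
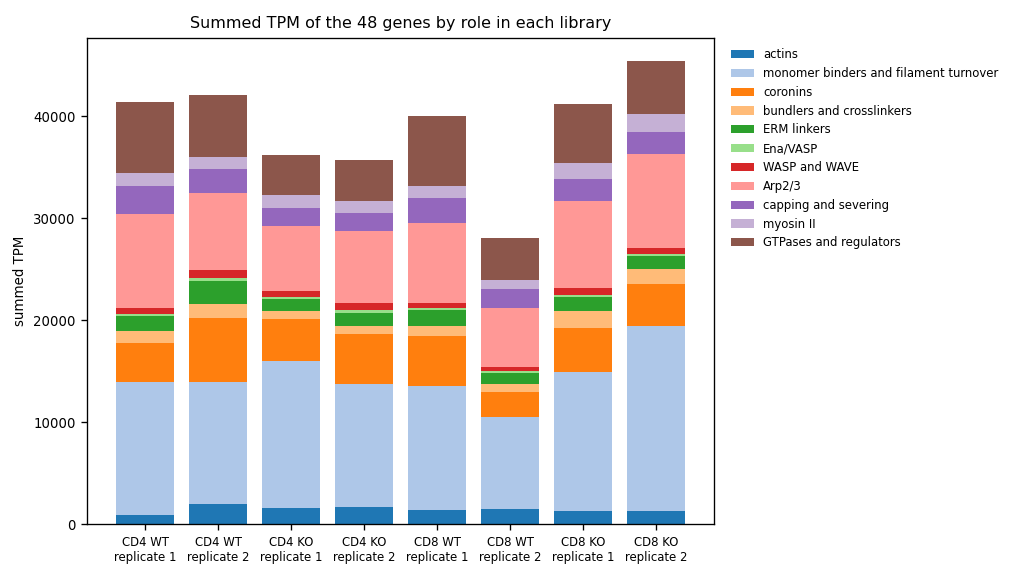
Summed TPM (vertical axis from 0) of the 48 genes in each library, stacked by role. The CD4 KO bars stand at 36211 and 35659 TPM, below the CD4 WT bars at 41362 and 42048, and CD8 WT replicate 2 is the lowest at 28097.

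In CD4 cells 1 of the 48 genes changed, the Rac activator gene Dock2, which fell. The call used limma on log2(TPM + 1) with Benjamini-Hochberg adjustment over 11786 genes at 0.05, and 0.713% of all genes passed it (0.526% lower). A further 11 genes had an unadjusted p under 0.05, for 12 in all, of which 10 were lower, where 16.7% of all genes reached that level. Altogether 32 of 48 genes were lower in the CD4 KO, with a median log2 difference of -0.26 against -0.16 over all genes tested, of which 58.0% were lower. The T cell and B cell markers were also mostly lower there (6 of 7 and 8 of 9), and their part in the count was not tested. The KO libraries were clear of the WT libraries for 23 lower and 7 higher genes, against 36.5% of all genes lower and 21.7% higher. With median-of-ratios scaling, which moved the median of all genes from -0.16 to 0.03, the list split into 24 higher and 24 lower, and its median relative to all genes was -0.10 before and -0.07 after. Leaving out either CD8 WT library changes only the pooled spread of this comparison, so the median of the 48 genes, -0.26, could not move. The count of calls depends on that spread, which includes the CD8 libraries.

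In CD8 cells 0 of the 48 genes passed the same test (limma, 11 at an unadjusted p under 0.05, of which 10 were higher), where 0.297% of all genes were called and 15.1% had an unadjusted p under 0.05. The genes with the lowest p-values, each higher in the KO except Dock2, were Lcp1, Dock2, Coro1b, Was and Wipf1. Of the 48 genes 38 were higher, where 6176 of 11786 genes were, with a median of 0.30 against 0.05 over all genes. Libraries did not overlap for 21 higher and 5 lower genes, against 23% and 19.1% of all genes. T cell markers were likewise higher by group means (7 of 7), with CD8 WT replicate 2 the lowest library at a sum of 2366 TPM. The sum in CD8 WT replicate 1, 5355 TPM, lay between those of the CD8 KO libraries, 5536 and 4904 TPM. The part of these markers in the count was not tested. Without CD8 WT replicate 2 the genes that did not overlap were 26 higher and 15 lower (32.4% and 41.0% of all genes), and without CD8 WT replicate 1 they were 35 and 9 (47.2% and 32.9%). In counts and alternatives added after seeing the data, leaving out CD8 WT replicate 2 gave 29 of 48 higher and a median of 0.18, with all genes at -0.07. The 13 genes that turned included Msn, Coro1a, Rac2, Capza1 and Arhgdib. The median relative to all genes was 0.25 with all libraries and 0.26 without that one. Without CD8 WT replicate 1 instead, which leaves only the library that stood apart, the median was 0.59, with all genes at 0.20.

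No gene of the 48 passed the interaction term, which tests whether the KO effect differs between CD8 and CD4 cells (limma, 0 of 48, with 9 at an unadjusted p under 0.05, where 0 of all genes passed and 6.95% had an unadjusted p under 0.05). The estimated difference, CD8 effect minus CD4 effect, was above 0 for 41 of 48 genes, where it was for 7211 of 11786 genes. Its median was 0.58 against 0.24 over all genes. Scaling by median-of-ratios moved these medians to 0.26 and -0.06, and 36 of 48 genes stayed above 0. All 48 genes share the same 8 libraries, so their signs are not independent of each other.

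**Figure D3:**
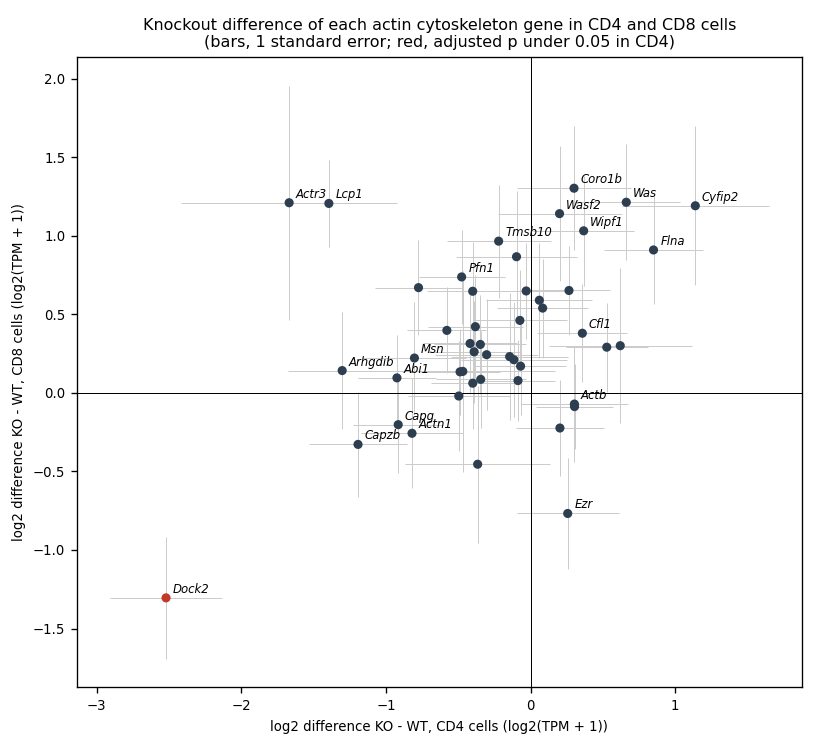
Log2 difference KO minus WT of each of the 48 genes in CD4 cells (horizontal axis) and CD8 cells (vertical axis), with bars of 1 standard error and the called gene in red. Dock2 lies alone at the lower left with -2.52 and -1.30, Lcp1 lies at -1.39 and 1.21, and most other points lie above the horizontal line.

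Neither actin gene passed in either lineage. Actb, the gene of beta-actin, was measured at 709 and 1612 TPM in CD4 WT against 1292 and 1345 in CD4 KO. CD8 WT had 1026 and 1041 TPM, against 993 and 974 in CD8 KO. CD4 WT replicate 1 was the lowest library and CD4 WT replicate 2 the highest, so the CD4 groups overlapped, and the differences were 0.30 ± 0.37 and -0.07 ± 0.37 (limma, adjusted p = 0.719 and 0.942). Actg1, the gene of gamma-actin, had 206 and 340.4 TPM in CD4 WT against 315 and 295 in CD4 KO. CD8 WT had 356 and 409 TPM, against 317 and 338 in CD8 KO. The difference was 0.20 ± 0.30 in CD4 and -0.22 ± 0.30 in CD8 cells. For both actins the CD8 KO libraries lay below both CD8 WT libraries by a margin smaller than the standard error. Actb made up 71.8% to 82.6% of the summed actin transcripts, with 77.5% and 82.6% in CD4 WT and 74.2% and 71.8% in CD8 WT, so the share was lower in WT CD8 than in WT CD4 cells without overlap.

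Among the 6 genes of monomer binding and filament turnover, 0 passed in either lineage, 5 were lower in the CD4 KO and 6 were higher in the CD8 KO. Over all genes 58.0% were lower in the CD4 KO. With median-of-ratios scaling 3 of the 6 were lower in the CD4 KO and 6 higher in the CD8 KO. Without CD8 WT replicate 2, 5 of the 6 were higher in the CD8 KO. Cfl1 encodes cofilin, which severs old filaments, and was the most abundant of the 48 genes at 5643 and 5396 TPM in CD4 WT against 7786 and 6419 in CD4 KO. CD8 WT had 5997 and 4551 TPM, against 6606 and 6997 in CD8 KO. All 4 KO libraries exceeded all 4 WT libraries, with differences of 0.36 ± 0.31 and 0.38 ± 0.31 (adjusted p = 0.595 and 0.576). Pfn1, the gene of profilin, which loads monomers for growth at filament ends, went the opposite way in the lineages, at 398 and 326 TPM in CD4 WT against 274 and 244 in CD4 KO. CD8 WT had 299 and 216 TPM, against 369 and 489 in CD8 KO. Neither pair of groups overlapped, and its differences were -0.48 ± 0.30 in CD4 (adjusted p = 0.454) and 0.74 ± 0.30 in CD8 cells (adjusted p = 0.292).

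Tmsb10, the second thymosin printed above, had 3894 and 3514 TPM in CD4 WT against 3297 and 3054 in CD4 KO. CD8 WT had 3366 and 2390.1 TPM, against 4102 and 7488 in CD8 KO, with CD8 KO replicate 2 far above every other library. Its differences were -0.22 ± 0.36 and 0.97 ± 0.36 (adjusted p = 0.796 and 0.262). Tmsb4x stood at 2650.1 and 2305 TPM in CD4 WT against 2762 and 1995 in CD4 KO. CD8 WT had 2092 and 1455 TPM, against 2122 and 2721 in CD8 KO. The difference was -0.07 ± 0.32 in CD4 and 0.46 ± 0.32 in CD8 cells. The share of Tmsb4x in the pair was 38.3% and 37.8% in CD8 WT, against 34.1% and 26.7% in CD8 KO, which do not overlap, while the CD4 groups overlapped (40.5% and 39.6% in WT, 45.6% and 39.5% in KO). Cap1, which recycles monomers together with cofilin, ranged from 49.0 to 262 TPM in the CD8 WT libraries alone, and Wdr1, a cofilin helper, had differences of -0.35 ± 0.32 and 0.31 ± 0.32.

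Coro1a, the coronin of leukocytes needed for naive T cells to persist, was abundant and uneven between replicates, at 3708 and 6038 TPM in CD4 WT against 3878 and 4723 in CD4 KO. CD8 WT had 4761 and 2319 TPM, against 4034 and 3772 in CD8 KO. The groups overlapped in both lineages (-0.14 ± 0.40 and 0.23 ± 0.40, adjusted p = 0.891 and 0.807). Coro1b, a more widely expressed coronin, was at 178 and 243 TPM in CD4 WT against 265 and 247 in CD4 KO. CD8 WT had 182 and 78.7 TPM, against 264 and 334 in CD8 KO. Its 4 KO libraries lay above its 4 WT libraries, with differences of 0.30 ± 0.40 in CD4 (adjusted p = 0.744) and 1.30 ± 0.40 in CD8 cells (adjusted p = 0.201), the latter 0.71 without CD8 WT replicate 2. The share of Coro1a in the pair was accordingly lower in the KO in both lineages, at 93.6% and 95.0% against 95.4% and 96.1% in CD4 and 93.9% and 91.9% against 96.3% and 96.7% in CD8 cells.

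Of the 4 bundlers and crosslinkers, Lcp1 differed most. It encodes L-plastin, the filament bundler of leukocytes, and was measured at 684 and 678 TPM in CD4 WT against 302 and 221 in CD4 KO. CD8 WT had 516 and 427 TPM, against 1107 and 1064 in CD8 KO. The CD4 KO libraries were the lowest of the 8 and the CD8 KO libraries the highest, with no overlap in either lineage. The differences, -1.39 ± 0.28 in CD4 (adjusted p = 0.0606) and 1.21 ± 0.28 in CD8 cells (adjusted p = 0.127), did not pass, and neither did their difference of 2.60 ± 0.39 (unadjusted p = 6.77e-05, adjusted p = 0.367), which tied for the lowest adjusted p of all genes. In CD4 cells Lcp1 did pass with 6 of 21 other settings, among them the CD4 groups fitted alone (adjusted p = 0.0494), and over the 21 its adjusted p ranged from 0.00377 to 0.444. Its CD8 difference was 1.07 without CD8 WT replicate 2. Other leukocytes express Lcp1 too. In the CD4 KO B cell markers were lower (8 of 9) and myeloid markers higher (12 of 12). By group means both were lower in the CD8 KO (8 of 9 and 12 of 12), with CD8 WT replicate 2 the highest library. Summed B cell markers were 1825 and 23013 TPM in CD8 WT against 1987 and 2611 in CD8 KO. Summed myeloid markers were 654 and 29177 TPM in CD8 WT against 1206 and 1572 in CD8 KO. In both sums CD8 WT replicate 1 thus lay below both CD8 KO libraries. The part of these markers in the Lcp1 differences was not tested.

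Flna, the gene of the crosslinker filamin A, had 4 KO libraries above 4 WT libraries, at 47.1 and 76.6 TPM in CD4 WT against 96.8 and 123 in CD4 KO. CD8 WT had 41.5 and 50.6 TPM, against 91.4 and 82.8 in CD8 KO. The differences were close in size, 0.85 ± 0.34 and 0.91 ± 0.34, and did not pass (adjusted p = 0.250 and 0.268). Actn1, an alpha-actinin, was lower in the CD4 KO without overlap, at 176 and 242 TPM in CD4 WT against 115 and 118 in CD4 KO (-0.82 ± 0.35, adjusted p = 0.276), and overlapped in CD8 cells (-0.26 ± 0.35). Its relative Actn4 overlapped in both lineages (-0.30 ± 0.35 and 0.24 ± 0.35).

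The ERM genes encode moesin, ezrin and radixin, which tie filaments to the plasma membrane. Msn, by far the most abundant, was at 1231 and 1759 TPM in CD4 WT against 784 and 906 in CD4 KO. CD8 WT had 1176 and 613 TPM, against 1045 and 939 in CD8 KO. Both CD4 KO libraries were below both CD4 WT libraries (-0.80 ± 0.36, adjusted p = 0.297), while the CD8 groups overlapped (0.22 ± 0.36). Ezr was lower in the CD8 KO without overlap, at 315 and 399.6 TPM in CD8 WT against 219.5 and 197 in CD8 KO (-0.77 ± 0.35, adjusted p = 0.342), and overlapped in CD4 cells (0.26 ± 0.35). Rdx differed by -0.07 ± 0.31 and 0.17 ± 0.31. As a share of the 3 transcripts, Msn was 82.5% and 79.6% in CD4 WT against 67.9% and 69.3% in CD4 KO, and 74.6% and 57.0% in CD8 WT against 77.0% and 77.5% in CD8 KO. The CD4 gap is larger than the spread between replicates, and in CD8 WT the lower of the values is from replicate 2.

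The filament elongators Vasp and Evl differed from each other. Evl, an Ena/VASP protein of blood cells, was at 139 and 163 TPM in CD4 WT against 80.6 and 95.2 in CD4 KO. CD8 WT had 99.3 and 71.3 TPM, against 139 and 130.0 in CD8 KO. It was lower in the CD4 KO and higher in the CD8 KO without overlap. Its differences were -0.77 ± 0.30 (adjusted p = 0.235) and 0.67 ± 0.30 (adjusted p = 0.334). Vasp overlapped in both lineages, at 55.7 and 153 TPM in CD4 WT against 127 and 159.8 in CD4 KO. CD8 WT had 62.7 and 129 TPM, against 102 and 121 in CD8 KO (differences of 0.62 ± 0.49 in CD4 and 0.30 ± 0.49 in CD8 cells).

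All 6 WASP and WAVE genes were higher in the CD8 KO, with a median of 1.09, and 5 of them without overlap (23% of all genes), though 0 passed (limma, 4 at an unadjusted p under 0.05). Without CD8 WT replicate 2 it was 5 of 6 with a median of 1.10, and with median-of-ratios scaling 4 of 6 with a median of 0.99. Was, the gene of the Wiskott-Aldrich protein that activates Arp2/3, was at 62.9 and 125 TPM in CD4 WT against 141 and 141 in CD4 KO. CD8 WT had 38.9 and 39.8 TPM, against 107 and 80.4 in CD8 KO. Its KO libraries exceeded the WT libraries within each lineage, and its differences were 0.66 ± 0.37 (adjusted p = 0.402) and 1.21 ± 0.37 (adjusted p = 0.203). Wipf1, whose product WIP stabilises WASP, was at 25.6 and 26.9 TPM in CD8 WT against 52.3 and 57.4 in CD8 KO (1.03 ± 0.35, adjusted p = 0.234), and overlapped in CD4 cells (0.37 ± 0.35).

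Wasf2, the gene of WAVE2, was at 18.4 and 28.0 TPM in CD8 WT against 49.3 and 53.5 in CD8 KO (1.14 ± 0.43, adjusted p = 0.265), and also overlapped in CD4 cells (0.20 ± 0.43). Cyfip2, a subunit of the complex that holds WAVE inactive, had 22.8 and 38.3 TPM in CD4 WT against 60.7 and 72.4 in CD4 KO. CD8 WT had 18.4 and 17.0 TPM, against 24.2 and 71.0 in CD8 KO. The KO libraries were above the WT libraries in each lineage, with CD8 KO replicate 1 close to the WT level, and the differences were 1.14 ± 0.51 and 1.19 ± 0.51 (adjusted p = 0.298 and 0.312). Abi1, another subunit of that complex, was lower in the CD4 KO, at 361 and 388 TPM in CD4 WT against 172 and 226 in CD4 KO (-0.92 ± 0.27, adjusted p = 0.142), and differed little in CD8 cells (0.10 ± 0.27). Nckap1l, the leukocyte subunit HEM1, had differences of -0.34 ± 0.31 and 0.09 ± 0.31. Within the WAVE complex in CD4 cells, Cyfip2 was higher and Abi1 and Nckap1l were lower in the KO, each without overlap.

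The 8 Arp2/3 genes were all higher in the CD8 KO, with a median of 0.48 and 4 without overlap (23% of all genes), and 5 of 8 were lower in the CD4 KO. In neither lineage did any pass (limma, 0 in CD8 and 1, Actr3, in CD4 cells at an unadjusted p under 0.05). Leaving out CD8 WT replicate 2 gave 7 of 8 higher in CD8 cells with a median of 0.39. With median-of-ratios scaling 8 of 8 were higher in the CD8 KO and 4 of 8 lower in the CD4 KO. Actr3, the gene of the Arp3 subunit, was at 814 and 174 TPM in CD4 WT against 110.3 and 126 in CD4 KO. CD8 WT had 197 and 130.2 TPM, against 183 and 757 in CD8 KO. A single library in CD4 WT and another in CD8 KO stood several times above the rest, so its differences of -1.67 ± 0.75 and 1.21 ± 0.75 carry large errors. Actr2, the gene of Arp2, was steadier, at 364 and 289 TPM in CD4 WT against 204 and 230.5 in CD4 KO. CD8 WT had 224 and 264 TPM, against 334 and 307 in CD8 KO (differences of -0.58 ± 0.27 in CD4 and 0.40 ± 0.27 in CD8 cells, adjusted p = 0.325 and 0.507).

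Although the complex holds its subunits in equal number, their TPM differed widely within each library, from 24.1-fold in CD8 KO replicate 2 to 56.2-fold in CD4 WT replicate 1 between the highest (Arpc2 or Arpc5) and the lowest (Arpc3). Arpc2 was at 2939 and 2699 TPM in CD4 WT against 1900.2 and 2123 in CD4 KO, with no overlap in CD4 cells (-0.49 ± 0.28, adjusted p = 0.408), and differed by 0.13 ± 0.28 in CD8 cells. Arpc5 was at 2469 and 1675 TPM in CD8 WT against 2959 and 2955 in CD8 KO, without overlap (0.54 ± 0.32, adjusted p = 0.445), and differed by 0.08 ± 0.32 in CD4 cells. Arpc4, whose promoter window holds a CArG box, was at 141 and 146 TPM in CD8 WT against 226 and 225 in CD8 KO (0.65 ± 0.30, adjusted p = 0.348). Arpc3 stood between 50.5 and 123 TPM, its highest value in CD8 KO replicate 2.

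The paralogs Arpc1a and Arpc1b, which replace each other in the complex, differed in direction in CD4 cells. Arpc1a was higher in all 4 KO than in all 4 WT libraries, at 142 and 179 TPM in CD4 WT against 224 and 236 in CD4 KO. CD8 WT had 183 and 159 TPM, against 185 and 236 in CD8 KO (differences of 0.53 ± 0.28 in CD4 and 0.29 ± 0.28 in CD8 cells, adjusted p = 0.387 and 0.640). Arpc1b, the form that prevails in blood cells, was at 1983 and 1908 TPM in CD4 WT against 1382 and 1611 in CD4 KO, each KO library lying under both WT libraries (-0.38 ± 0.33, adjusted p = 0.592). Its share of the pair went from 93.3% and 91.4% in CD4 WT to 86.0% and 87.2% in CD4 KO, a gap larger than the spread between replicates. In CD8 cells the shares overlapped (92.1% and 88.3% in WT, 92.2% and 89.9% in KO).

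The 5 genes of capping and severing were lower in the CD4 KO, 4 of them without overlap (36.5% of all genes), and 0 passed (limma, 2 at an unadjusted p under 0.05). With median-of-ratios scaling 4 of 5 were lower. Capzb, the shared beta subunit of the barbed-end capping protein, was at 772 and 648 TPM in CD4 WT against 294 and 324 in CD4 KO. CD8 WT had 814 and 437 TPM, against 528 and 427 in CD8 KO. The CD4 KO libraries were the lowest of the 8 (-1.19 ± 0.34, adjusted p = 0.132), and the CD8 groups overlapped (-0.33 ± 0.34). Its partners, the alpha subunit genes Capza1 and Capza2, differed by -0.42 ± 0.32 and -0.09 ± 0.26 in CD4 cells and by 0.31 ± 0.32 and 0.08 ± 0.26 in CD8 cells. Capg, a capping protein of the gelsolin family that myeloid cells also express, was at 358 and 311 TPM in CD4 WT against 176 and 177 in CD4 KO. CD8 WT had 132 and 219.7 TPM, against 144 and 152 in CD8 KO. Both CD4 KO libraries lay below both CD4 WT libraries (-0.92 ± 0.31, adjusted p = 0.184). The part of the B cell markers, lower in the CD4 KO, and of the myeloid markers, higher there, was not tested. The CD8 groups overlapped (-0.20 ± 0.31). Gsn, the gene of gelsolin, stayed under 50 TPM in every library (-0.37 ± 0.50 and -0.45 ± 0.50).

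The 3 myosin II genes were higher in the CD8 KO without overlap (23% of all genes), with a median of 0.65 (0.49 without CD8 WT replicate 2). Myl6, the essential light chain, was at 694 and 557 TPM in CD8 WT against 898 and 1063 in CD8 KO (0.65 ± 0.28, adjusted p = 0.321) and differed by 0.27 ± 0.28 in CD4 cells. Myl12b, a regulatory light chain, was lower in the CD4 KO and higher in the CD8 KO, at 462 and 412 TPM in CD4 WT against 349 and 312 in CD4 KO. CD8 WT had 479 and 278 TPM, against 549 and 595 in CD8 KO (differences of -0.40 ± 0.31 in CD4 and 0.65 ± 0.31 in CD8 cells, adjusted p = 0.552 and 0.363). Myh9, the heavy chain, was at 53.4 and 79.7 TPM in CD8 WT against 129 and 111 in CD8 KO (0.87 ± 0.42, adjusted p = 0.363) and overlapped in CD4 cells (-0.10 ± 0.42).

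Dock2 (chr11:34226864-34514545, minus strand, mm10 as the files give it) encodes an exchange factor that activates Rac and that lymphocytes need for chemotaxis. It was at 459 and 376 TPM in CD4 WT against 58.3 and 87.9 in CD4 KO. CD8 WT had 384 and 198 TPM, against 133 and 92.6 in CD8 KO. All 4 KO libraries were below all 4 WT libraries, and in CD4 cells it fell by 2.52 on the log2 scale (limma, SE 0.39, adjusted p = 0.0343). In CD8 cells its difference of -1.30 ± 0.39 did not pass (adjusted p = 0.193, and -1.78 without CD8 WT replicate 2), and the CD8 and CD4 effects differed by 1.21 ± 0.55 (adjusted p = 0.701). The CD4 call was lost on leaving out any 1 of the CD4 libraries or of the CD8 KO libraries (adjusted p from 0.0972 to 0.440), with the difference between -2.23 and -2.81. It was also lost when a trend with genomic span was removed (a difference of -0.99, adjusted p = 0.257), and it held in 12 of 21 other settings (adjusted p from 0.00145 to 0.440 over the 21).

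Arhgdib, the gene of a GTPase inhibitor that holds its targets in the cytosol, was at 3403 and 2499.9 TPM in CD4 WT against 1197 and 1167 in CD4 KO. CD8 WT had 3215 and 1534 TPM, against 2535 and 2370.2 in CD8 KO. The CD4 KO libraries were the lowest of the 8, with no overlap (-1.30 ± 0.37, adjusted p = 0.136), and the CD8 groups overlapped (0.14 ± 0.37). Dock8, an exchange factor for Cdc42, was lower in the CD4 KO without overlap (-0.50 ± 0.35) and overlapped in CD8 cells (-0.02 ± 0.35). The GTPase genes Rac2, Cdc42 and Rhoh differed by -0.39 ± 0.33, -0.40 ± 0.29 and -0.12 ± 0.37 in CD4 cells and by 0.26 ± 0.33, 0.06 ± 0.29 and 0.21 ± 0.37 in CD8 cells. Rhoa was the exception in direction, higher in the CD4 KO at 562 and 744 TPM in CD4 WT against 778 and 819 in CD4 KO and lower in the CD8 KO at 605 and 626 TPM in CD8 WT against 561 and 598 in CD8 KO, neither past the test (adjusted p = 0.600 and 0.898).

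**Figure D4:**
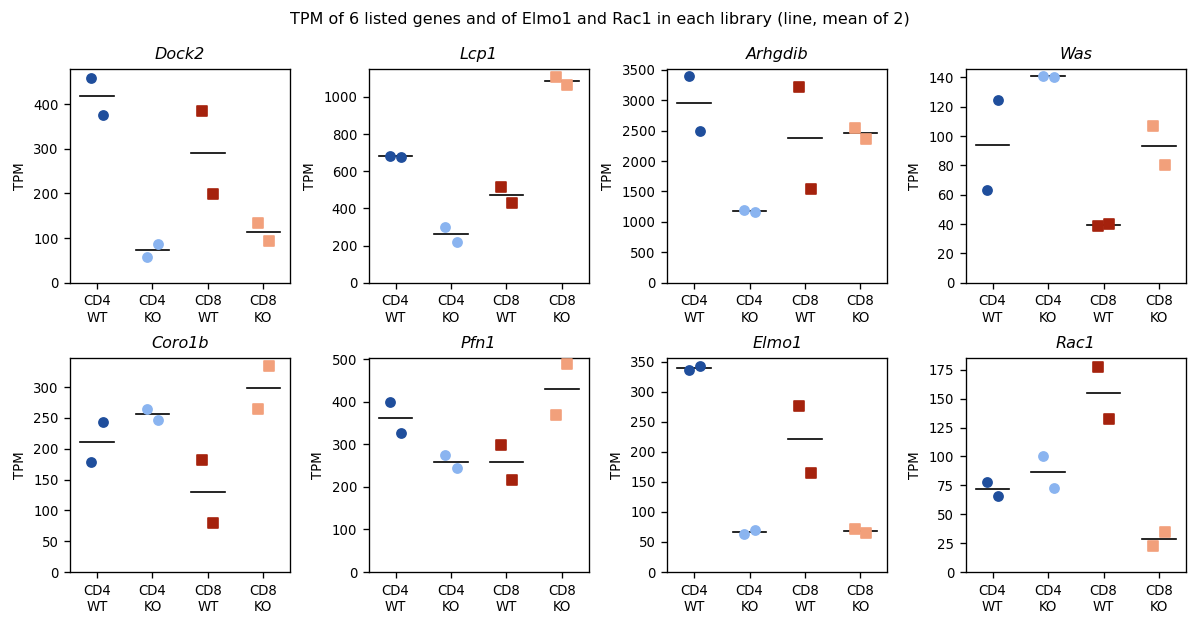
TPM (vertical axes from 0) of Dock2, Lcp1, Arhgdib, Was, Coro1b and Pfn1, and of the pathway genes Elmo1 and Rac1, in each library, with a line at the mean of 2. Dock2 and Elmo1 are low in all 4 KO libraries, Lcp1 is lowest in CD4 KO and highest in CD8 KO, and Rac1 is low in CD8 KO alone among the 4 groups.

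Groups that did not overlap in either lineage and lay in opposite directions were found for 8 of the 48 genes, where 5.75% of all genes had such values. Pfn1, Tmsb10, Lcp1, Evl, Abi1, Actr2 and Myl12b were lower in the CD4 KO and higher in the CD8 KO, where 3.84% of all genes did the same, and Rhoa was the reverse (1.91%). The same 8 genes had such values without CD8 WT replicate 2, when Capg joined them and 5.29% of all genes were lower in CD4 and higher in CD8 cells. Without CD8 WT replicate 1 the genes lower in CD4 and higher in CD8 cells were 18 of 48, where 14.8% of all genes were. For Abi1 the CD8 part is a margin of a few TPM, and with median-of-ratios scaling its CD8 difference was -0.01. Genes higher in both lineages without overlap were Cfl1, Coro1b, Flna, Was, Cyfip2 and Arpc1a (6 of 48, against 8.93%), and Dock2 alone was lower in both (11.1%). When the lineages are pooled, Cfl1, Coro1b, Flna and Arpc1a had 4 KO libraries above 4 WT libraries, where 5.57% of all genes did, and Dock2 had them below, where 7.69% did. Without CD8 WT replicate 2, Actn1, Msn, Capzb, Dock2 and Dock8 had them below (5 of 48, against 16.8% of all genes), and without CD8 WT replicate 1, Capg, Gsn and Dock2 did (3 of 48, against 10%).

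Between WT CD8 and WT CD4 cells 0 of the 48 genes passed (limma, 5 at an unadjusted p under 0.05, all lower in CD8), where 0.195% of all genes were called and 8.67% had an unadjusted p under 0.05. Of the 48 genes 42 were lower in CD8 cells, where 67.0% of all genes were, with a median of -0.36 against -0.26 over all genes. For 17 of them the groups did not overlap, where 24.8% of all genes were lower without overlap. The 6 WASP and WAVE genes were each lower in WT CD8 than in WT CD4 cells without overlap (24.8% of all genes), with differences of -1.15 for Was, -1.29 for Wasf2, -0.72 for Wipf1, -0.71 for Cyfip2, -0.65 for Abi1 and -0.37 for Nckap1l, and the lowest adjusted p was 0.449 (Was). The 5 genes at an unadjusted p under 0.05 were Was, Wasf2, Abi1, Capg (-0.97 ± 0.31) and Evl (-0.83 ± 0.30). Actg1 was the only one of the 48 that was higher in WT CD8 cells without overlap, where 9.53% of all genes were (0.53 ± 0.30, adjusted p = 0.624). This comparison leans on the library that stood apart and on the scaling. The count of lower genes was 31 of 48 without CD8 WT replicate 2, when the Capg difference was -1.33. With median-of-ratios scaling it was 28 of 48.

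A wider list of 125 other actin pathway symbols covered turnover, crosslinking, nucleation, other myosins, adhesion and SRF. Of these 118 were tested, 9 through an older symbol, 4 were under the filter and 3 had no match. Of those 3, Mrtfa and Mrtfb are newer names of Mkl1 and Mkl2, which were tested, and Aip1 was not matched under that symbol. In CD4 cells 3 passed, all lower, where 0.713% of all genes passed. Of the 118 genes 76 were lower with a median of -0.34, where 58.0% of all genes were lower with a median of -0.16. Elmo1, a partner of Dock2 in activating Rac, was at 337 and 342 TPM in CD4 WT against 63.0 and 70.02 in CD4 KO. CD8 WT had 276 and 165 TPM, against 71.4 and 64.5 in CD8 KO. All 4 KO libraries were below all 4 WT libraries, and Elmo1 fell in CD4 cells (limma, -2.34 ± 0.32, adjusted p = 0.0290) with a CD8 difference of -1.64 ± 0.32 that did not pass (adjusted p = 0.0914). Arhgap15, which switches Rac off, fell in CD4 cells at 2336 and 1995 TPM in CD4 WT against 395 and 532 in CD4 KO (-2.23 ± 0.39, adjusted p = 0.0423), and Ssh2, a phosphatase that activates cofilin, at 342 and 421 TPM in CD4 WT against 117 and 143 in CD4 KO (-1.54 ± 0.28, adjusted p = 0.0467). Each of these calls was lost on leaving out any 1 of the CD4 or CD8 KO libraries, and those of Arhgap15 and Ssh2 also with the replicate number as a block (adjusted p = 0.0530 and 0.0693).

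In CD8 cells 1 of the 118 passed (0.297% of all genes), Rac1, the widely expressed relative of Rac2. It was at 177 and 132 TPM in CD8 WT against 22.6 and 34.2 in CD8 KO, and fell there (limma, -2.42 ± 0.35, adjusted p = 0.0284), while the CD4 groups overlapped at 77.6 and 65.6 TPM in CD4 WT against 100.5 and 72.9 in CD4 KO (0.26 ± 0.35). The Rac1 effects differed by -2.68 ± 0.49 between the lineages, which did not pass (adjusted p = 0.431). Rac1 and Rac2 share 70.1% of their coding bases, and Rac2 was 0.26 ± 0.33 in the same comparison. The median over the 118 genes in CD8 cells was 0.13 against 0.05 over all genes, with 65 higher, where 6176 of 11786 genes were. Between WT CD8 and WT CD4 cells, Myo1f, a single-headed myosin of leukocytes, was higher in CD8 cells, at 66.7 and 53.2 against 4.83 and 3.13 TPM (3.63 ± 0.51, adjusted p = 0.0254), as the 1 pathway gene that passed. The Rac1 call was lost on leaving out any library other than the CD8 WT ones (adjusted p up to 0.239), and the Myo1f call on leaving out CD8 WT replicate 2 (adjusted p = 0.0607), either CD4 WT or either CD8 KO library, each with the direction kept. Over the 21 settings the adjusted p ranged from 0.0107 to 0.618 for Rac1 and from 0.0142 to 0.697 for Myo1f.

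The remaining pathway genes with the widest KO differences did not pass in either lineage. In CD4 cells Dock10 differed by -2.22 ± 0.45, Fscn1 by 1.11 ± 0.48, Lasp1 by 1.18 ± 0.40, Myo1e by -2.04 ± 0.85, Myo1f by 1.09 ± 0.51, Plek by -0.12 ± 1.27, Ssh3 by 1.06 ± 0.59 and Wash by 0.79 ± 0.38. In CD8 cells the differences were -1.99 ± 0.45, 1.59 ± 0.48, 0.58 ± 0.40, -2.36 ± 0.85, 1.24 ± 0.51, -2.35 ± 1.27, 1.79 ± 0.59 and 1.52 ± 0.38 in the same order. Plek, the gene of pleckstrin in platelets and leukocytes, was at 9.62 and 321 TPM in CD8 WT against 20.8 and 5.07 in CD8 KO, and its CD8 difference was 0.11 without CD8 WT replicate 2, the library with the highest myeloid and platelet markers.

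The 4 genes that fell in CD4 cells, Dock2, Elmo1, Arhgap15 and Ssh2, are long, at 288, 518, 639 and 244 kb in the files. Over all genes tested, the CD4 difference declined with genomic span (Pearson's r with log10 span -0.39, across 11786 genes that share the same libraries), and among the 48 genes r was -0.40. In CD8 cells r was -0.23 over all genes and -0.22 among the 48. Of 1074 genes spanning 100 kb or more, 88.5% were lower in the CD4 KO and 82.3% in the CD8 KO. Among the 48 genes, 5 reach that span, and Dock2, Dock8, Evl and Abi1 were lower in the CD4 KO while Cyfip2 was higher (1.14 ± 0.51). In the CD8 KO Dock2 and Dock8 were lower, and Evl, Abi1 and Cyfip2 were higher. Capzb, Lcp1 and Wipf1, at 98.9, 99.7 and 99.8 kb, fell just short of that span. The 11 genes under 10 kb, such as Cfl1, Pfn1, Tmsb10 and Was, had a median of 0.20 in CD4 and 0.54 in CD8 cells, against 0.17 and 0.30 for all 3601 genes of that span. With the trend removed the median of the 48 genes in CD4 cells was -0.01, and the differences were -0.99 for Dock2, -0.48 for Elmo1, -0.26 for Arhgap15 and -0.12 for Ssh2, none past the test. In CD8 cells the median was then 0.25. Lcp1, as 1 of the 48, passed there (1.69, adjusted p = 0.0441, and up to 0.618 over the 21 settings), where 32 of all genes did.

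**Figure D5:**
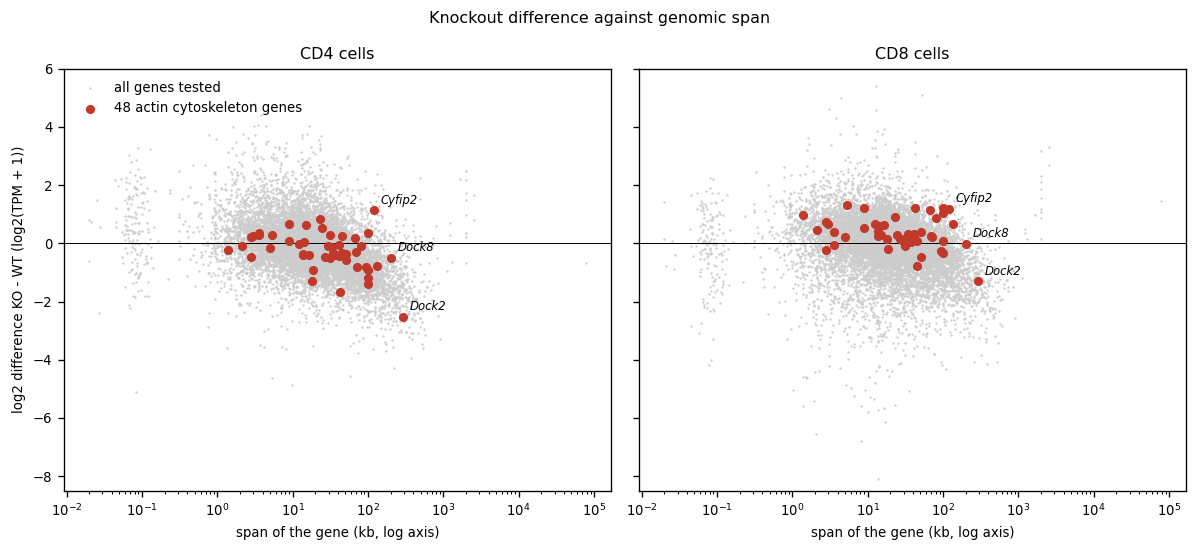
Log2 difference KO minus WT (vertical axis) against the span of each gene in kb (horizontal log axis), in CD4 and CD8 cells, with all 11786 genes in grey and the 48 genes in red. The grey cloud slopes down at long spans, Dock2 at 288 kb is the lowest red point in both panels, and Cyfip2 at 119 kb lies above 0 in both.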

How the data were processed

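Libraries of messenger RNA were made with a SMARTER kit from TRIzol extracts, per the labels. The submitters' processing notes name HISAT and mm10, and no source used here names the program behind the gene tables. Per the file headers, the deposited tables hold TPM, FPKM (fragments per kilobase, scaled to library size) and a coverage signal for each gene. Every deposited TPM column has the same sum. Depth (3.03 to 4.01 gigabases) was estimated from coverage and FPKM, and without read counts no counting error is given. Rows that share a symbol were summed. With a pseudocount of 1, log2(TPM + 1) was fitted by limma 3.58.1 in R 4.3.3 with an intensity trend and a mean for each of 4 groups (4 residual and 5.68 prior degrees of freedom). The fit covered 11786 genes whose mean was 1 TPM or more. Every adjusted p is limma's, by the Benjamini-Hochberg method over those genes, called at 0.05, and ± marks the standard error with 2 libraries a group. The scale understates the changes of low genes. The steps were tested on simulated data. Coding sequences are from GENCODE M21 and promoter windows from RefSeq.

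The 48 genes, the other lists and the tests were chosen with earlier results of these data known. The rule for naming took Trappc1, genes called in any comparison, the 5 highest mean levels, the lowest p of each role in each KO comparison, the 5 largest differences each way, genes whose 4 KO libraries lie on 1 side of the 4 WT libraries, genes just at the filter, and paralogs side by side. Of the other pathway genes it took those called and the 3 largest differences each way in each KO comparison. Further genes of the 48 were described so that each role is covered, with their values seen. The 21 alternatives were pseudocounts of 0.1 and 5, no filter, a mean of at least 5 TPM, median-of-ratios scaling, rescaling without markers of other cells, FPKM, no intensity trend, library weights, a replicate block, a span trend removed, the largest row per symbol, the compared groups alone, and each of 8 libraries left out. Counts of directions under these were added after seeing the data.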

Additional observations from a re-analysis of the deposited data

Results flagged for a closer look

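For 8 of the 48 genes every KO library lay on one side of the WT libraries in CD4 cells and on the opposite side in CD8 cells. The difference between the lineages was tested with limma's interaction term, and 0 of the 8 passed over all genes. The CD8 effect minus the CD4 effect was 2.60 for Lcp1 (adjusted p = 0.367), 1.45 for Evl (adjusted p = 0.696), 1.22 for Pfn1 (adjusted p = 0.701) and 1.19 for Tmsb10 (adjusted p = 0.701). It was 1.05 for Myl12b (adjusted p = 0.701), 1.02 for Abi1 (adjusted p = 0.701) and 0.98 for Actr2 (adjusted p = 0.701). Rhoa went the other way at -0.39 (adjusted p = 0.790). Without CD8 WT replicate 1, the CD8 WT library that remains has 13.7% of its TPM on markers of other cells. The median difference of effect over the 48 genes was then 0.70, against 0.43 over all genes. Without CD8 WT replicate 2 it was 0.39, against 0.08 over all genes. Groups of 2 libraries are too small to test any library for standing apart.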

How the results depend on the processing

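In CD4 cells, against 84 calls over all genes and 1 among the 48, the calls were 0 and 0 with no filter, 5 and 0 without the intensity trend, 21 and 0 with the span trend removed, 1260 and 6 with library weights, 243 and 3 with the CD4 groups alone, 128 and 2 when rescaled without markers of other cells, and 141 (all genes) with median-of-ratios scaling. A mean of at least 5 TPM gave 115 calls over all genes and 2 among the 48. The median of the 48 genes became -0.038 with median-of-ratios scaling and -0.0064 with the span trend removed. In CD8 cells, against 35 calls, there were 0 with no filter and 15 without the trend. Library weights and the CD8 groups alone each gave 0. With the span trend removed 1 of the 48 passed, where 32 of all genes did. The median of the difference of effect became 0.26 with median-of-ratios scaling and 0.35 with the span trend removed. For WT CD8 against WT CD4 cells, with 23 calls, there were 1 with no filter, 4 without the trend, 15 with library weights and 0 with the groups alone, and the median became -0.069 with median-of-ratios scaling, -0.23 with FPKM and -0.12 with the span trend removed. Fitting the compared groups alone gives no value for the difference of effect.

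Leaving out 1 library at a time gave 0 to 768 calls over all genes and 0 to 6 among the 48 in CD4 cells, 0 to 1842 and 0 to 7 in CD8 cells, 0 to 1148 and 0 to 12 for the difference of effect, and 0 to 1629 and 0 to 6 between WT lineages. The medians ranged from -0.33 to -0.12, 0.18 to 0.59, 0.39 to 0.71 and -0.64 to -0.16. Where limma called 0 of all genes, 411 to 2733 had an unadjusted p under 0.05, and where it called 0 of the 48, 0 to 14 did. A group left with 1 library is assumed to vary like the others. Of 1764 values of named genes, a set without some paralogs and other genes described above, 37 reversed direction under an alternative. With the span trend removed these were, in CD4 cells, Evl (0.27), Plek (0.20), Gsn (0.12), Actg1 (-0.0098) and Arpc5 (-0.0029), and in CD8 cells Ssh2 (0.50), Actn1 (0.19), Capzb (0.15), Arhgap15 (0.12), Coro1a (-0.12) and Arhgdib (-0.063). With median-of-ratios scaling they were Arpc4 (0.19), Plek (0.096), Coro1a (0.080) and Tmsb10 (0.0037) in CD4 cells and Abi1 (-0.0055) in CD8 cells. Rescaling without markers of other cells reversed Abi1 in CD8 cells (-0.0075) and FPKM reversed Arpc4 in CD4 cells (0.059). Leaving out 1 library gave ranges across 0 in CD4 cells for Actb (-0.29 to 0.89), Actg1 (-0.16 to 0.56), Arpc4 (-0.38 to 0.32), Arpc5 (-0.16 to 0.32), Coro1a (-0.50 to 0.21), Ezr (-0.25 to 0.76), Plek (-0.60 to 0.36) and Vasp (-0.10 to 1.34). In CD8 cells, on leaving out a CD8 WT library, it did so for Actn1 (-0.66 to 0.15), Arhgdib (-0.39 to 0.68), Capza1 (-0.10 to 0.73), Capzb (-0.78 to 0.12), Coro1a (-0.29 to 0.75), Gsn (-1.13 to 0.22), Msn (-0.25 to 0.69), Plek (-4.81 to 0.11), Trappc1 (-0.66 to 0.33) and Vasp (-0.22 to 0.82). Over all 48 genes, median-of-ratios scaling turned 8 in CD4 cells, among them Tmsb4x, Rdx, Capza2, Myh9 and Rhoh, and 4 in CD8 cells. Rescaling without markers of other cells turned 4 in CD8 cells, and FPKM turned 4 in CD4 cells. With the span trend removed 11 of the 48 turned in CD4 and 5 in CD8 cells. The cause of these shifts was not tested.

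As labelled, replicates are linked across groups only by a number. The correlation of same-numbered deviations lay between -0.036 and 0.094. It cannot show whether same-numbered libraries share a mouse or batch, because the deviations may be technical. With the replicate number as a block, 29 genes were called in CD4 cells, Dock2 among them (adjusted p = 0.0409). Depth limits cannot be set from TPM.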
